A study of Bos taurus with 44 samples.

Results

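CD163L1, known in cattle as WC1, was followed in blood mononuclear cells of 11 Holstein cows as the marker of bovine gamma delta T cells. It was 1 of 141 named genes on a spotted cDNA array, and its members were the 8 of 1680 spots whose platform annotation gave CD163L1 as the only symbol. The spots were averaged on each of 44 arrays, and the arrays of a cow were then averaged to 1 value per cow. The labels describe work on the genetic basis of strong and weak antibody (Ab) and cell-mediated (DTH in the labels) immune responses, and the comparisons below ask whether CD163L1 differed between cows of the high and low classes.

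All cows were female Canadian Holsteins that had been immunized with antigens meant to raise both kinds of response. Blood was taken 6 days later, mononuclear cells (mainly lymphocytes and monocytes) were isolated on a Percoll density gradient, and the cells received no further treatment. The labels name 4 groups of 3 cows, high and low for each trait. Cow 1 of both high groups is 1 animal, called the shared cow here, so there were 2 further high-Ab, 2 further high-DTH, 3 low-Ab and 3 low-DTH cows. Neither ages nor the limits that separated high from low are given in the sources used here, and no animal identities are given, so cows that share a number in other groups were taken as different animals.

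WC1 molecules are transmembrane proteins built from scavenger receptor cysteine-rich domains, a fold they share with CD163, CD5 and CD6. In ruminants they are carried by a large share of circulating gamma delta T cells, T lymphocytes whose antigen receptor pairs a gamma with a delta chain in place of alpha and beta, and they act as coreceptors that can bind microbes and modify signalling through the CD3 chains. Cattle carry a family of WC1 genes, and the mixture of members on a cell separates gamma delta T cells with different responses to pathogens.

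The label rests on this gene alone. CD163L1 was the only measured gene of an 11-gene list for WC1-bearing gamma delta T cells, since the constant chains of the gamma delta receptor (TRDC, TRGC1 and TRGC2) were not among the named genes of the array. It could therefore be checked as a T cell gene only against the CD3 chains, which alpha beta T cells carry as well. In the RefSeq gene table (assembly ARS-UCD2.0), 5 other genes of the WC1 family lie on the chromosome of CD163L1, separated from it by 2 to 10 protein-coding genes. Whether RNA of these related genes binds the CD163L1 spots was not tested.

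Each value is a deposited log ratio of a cow against a common RNA standard, also made from blood mononuclear cells. It is read here as log2 and as running cow over standard, neither of which the sources used here state. A value of 0 thus means as much signal in the cow as in the standard, and all directions below would swap together if the ratio ran the other way. Dyes were swapped between arrays of each cow. The sign of 3 arrays could not be settled. In low-Ab cow 1 these were arrays 1 and 2, and in low-DTH cow 3 the last array, and they had a mean r of −0.23 to −0.20 with arrays of other cows, against 0.05 to 0.29 for the other 41, and an r down to −0.73 with another array of the same cow. All 3 are used as deposited, and the main comparisons, correlations and lists are also given with these 3 odd arrays turned. Values with a cow left out are as deposited. The vapA control spots, which carry a bacterial sequence, averaged 0.03 ± 0.09 over the 11 cows (SD).

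CD163L1 ran from 0.98 in the shared cow to −0.71 in low-Ab cow 3. In linear terms, if the ratios are log2, the shared cow stood at 1.97 times the standard and low-Ab cow 3 at 0.609 of it. Of the 5 high cows 4 were above 0, whereas of the 6 low cows only 1 was, low-DTH cow 3. In mixed blood cells, fewer cells of a type and less RNA per cell cannot be told apart, so these ratios do not separate the number of WC1-bearing cells from their CD163L1 content.

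The shared cow had CD163L1 ratios of 0.96, 1.34, 0.98 and 0.63 on its 4 arrays and a cow value of 0.98. High-Ab cow 2 was at 0.44, 0.48, 0.78 and 0.16, with a cow value of 0.46. High-Ab cow 3 was at −0.32, −0.36, −0.21 and −0.48, with a cow value of −0.34. The high-Ab cows thus lay on both sides of the standard, each with all of its arrays on 1 side.

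High-DTH cow 2 was at 0.34, 0.18, 0.06, 0.56 and 0.19 on its 5 arrays, with a cow value of 0.26. High-DTH cow 3 was at 0.33, 0.12, 0.16 and −0.27, with a cow value of 0.09. Both cow values were above the standard, and array 4 of cow 3 was the only array of either below it.

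Low-Ab cow 1 was at 0.12, −0.04, 0.06 and −0.29, the first 2 on odd arrays, with a cow value of −0.04 (−0.08 with the odd arrays turned). Low-Ab cow 2 was at −0.25, −0.53, −0.60 and −0.34, with a cow value of −0.43. Low-Ab cow 3 was at −0.50, −0.67, −0.41 and −1.28, with a cow value of −0.71. All 3 low-Ab cows were therefore below the standard, low-Ab cow 1 by less than the SD of 0.18 between its arrays.

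Low-DTH cow 1 was at −0.33, −0.35, −0.55 and −0.68, with a cow value of −0.48. Low-DTH cow 2 was at −0.44, −0.34, 0.05 and −0.35, with a cow value of −0.27. Low-DTH cow 3 was at 1.33 and 0.80 on its first 2 arrays and at −0.62 on the last, odd one, which gave a cow value of 0.71, or 1.02 with that array turned. Cow values average the arrays within each dye first, and a plain mean over its 3 arrays as deposited was 0.50. The low-DTH group thus held both low and high cows, and its highest member was exceeded as deposited by the shared cow alone and was the highest of the 11 cows with the odd array turned.

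**Figure D1:**
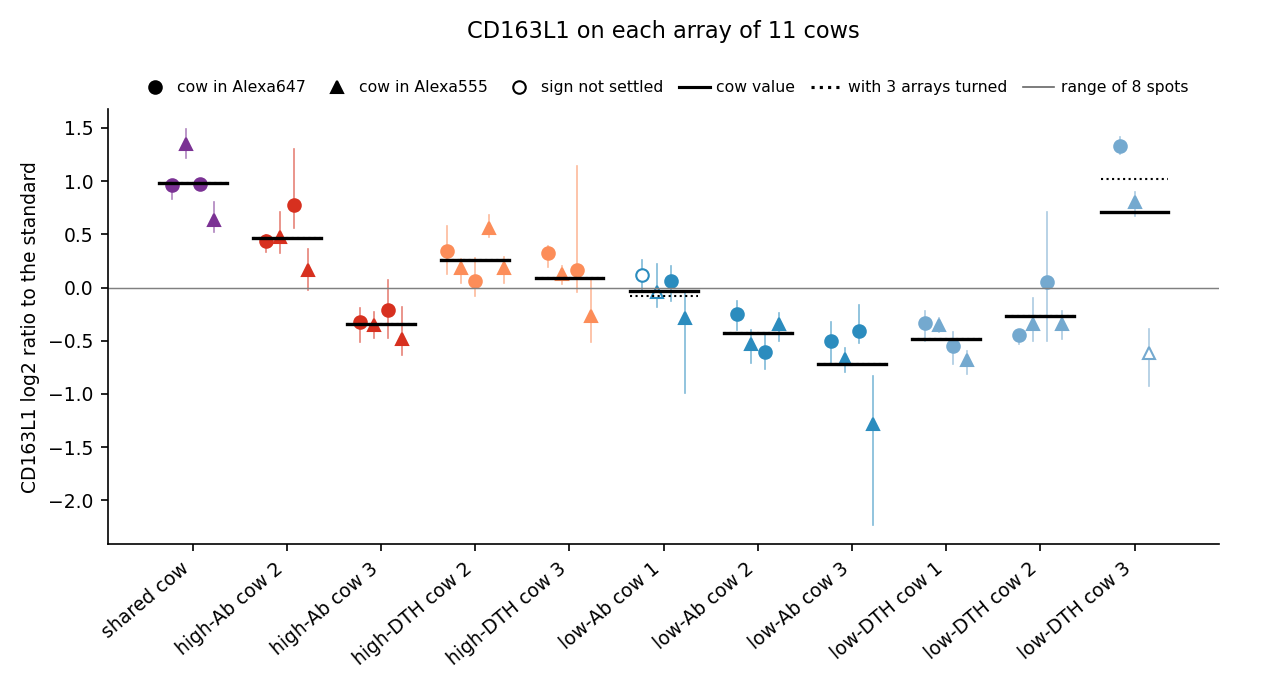
CD163L1 log2 ratio to the common standard (vertical axis) on each array of the 11 cows (horizontal axis), with circles for the cow in Alexa647, triangles for the cow in Alexa555, open symbols for the 3 odd arrays and thin lines for the range of the 8 spots. Thick bars are cow values, from −0.71 in low-Ab cow 3 to 0.98 in the shared cow, and dotted bars are cow values with the odd arrays turned, which move low-DTH cow 3 from 0.71 to 1.02.

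The 8 spots of an array gave close values on most arrays, with a median SD of 0.11 (0.04 to 0.55), and on 35 of 44 arrays all 8 spots had 1 sign. Spots of an array are repeat measurements and not replicates. Over arrays, 21 had a CD163L1 ratio above 0 and 23 below. In 7 cows every array had the same sign, and in 8 with the odd arrays turned.

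CD163L1 cow values repeated between the dye orientations. Over the 11 cows the means from arrays with the cow in Alexa647 and in Alexa555 correlated with r = 0.79 (permutation p = 0.0028, adjusted p = 0.00336 over 6 such relations) and rho = 0.93 (permutation p = 0.00013, adjusted p = 0.000195), and 9 of 11 cows had the same sign in both. Without low-DTH cow 3 and the shared cow, the 2 farthest from the median, r was 0.89. Arrays 1 and 2 of a cow against arrays 3 to 5 gave r = 0.59 (permutation p = 0.0552, adjusted p = 0.0552) and rho = 0.61 (permutation p = 0.0514, adjusted p = 0.0514), with the same sign in 8 of 11 cows and r = 0.91 without the 2 farthest cows. Turning the odd arrays gave r = 0.93 between dye orientations (permutation p = 4e-05, adjusted p = 0.00012) and 0.94 between array sets (permutation p = 1e-05, the smallest that 100000 permutations can give, adjusted p = 6e-05), with rho = 0.98 (permutation p = 1e-05, adjusted p = 6e-05) and 0.94 (permutation p = 0.00013, adjusted p = 0.000195) and the same sign in 10 of 11 cows each. Leaving out low-Ab cow 1 and low-DTH cow 3, which hold the odd arrays, r over the other 9 cows was 0.95 between dye orientations (permutation p = 0.00015, adjusted p = 0.000225) and 0.94 between array sets (permutation p = 9e-05, adjusted p = 0.00018), each with 8 of 9 cows of the same sign. Here rho was 0.98 (permutation p = 5e-05, adjusted p = 0.00015) and 0.88 (permutation p = 0.00277, adjusted p = 0.00332), and without the 2 farthest of the 9 cows r was 0.86 and 0.85. The arrays of a cow come from 1 animal, so this is the repeatability of the measurement and not of the animal. The 3 odd arrays stood out because they ran against other arrays, those of the same cow included. Part of the agreement after turning is thus built in, and the p-values of the turned values are no independent test of it.

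The gene was among those that set the cows apart most relative to their arrays. The SD of CD163L1 between cow values was 0.54, rank 9 of 141 genes, whereas the median gene had 0.15. Its SD between arrays of a cow was 0.34, rank 39, with a median gene at 0.25. The ratio of the spreads was 1.59, which ranked 3 of 141 after the Fc receptor genes FCGR3A (2.08) and FCER1G (1.78), and the median gene had 0.64. When the odd arrays were turned, the ratio for CD163L1 was 2.40 and ranked 5, behind the inflammatory genes CXCL8, CCL3, TNFRSF1A and IL1A.

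**Figure D2:**
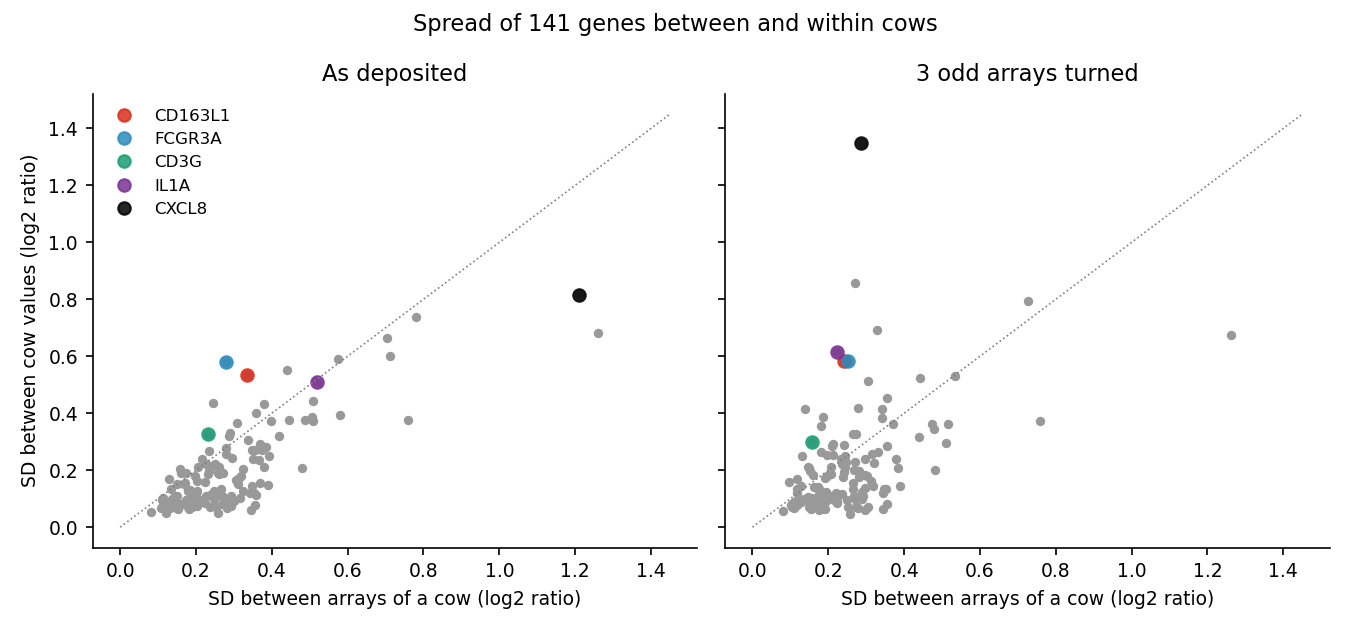
SD between the 11 cow values (vertical axis) against the pooled SD between arrays of a cow (horizontal axis), both in log2 ratio, for 141 genes, with the dotted line where they are equal. CD163L1 lies above the line at 0.54 against 0.34 as deposited (left) and at 0.58 against 0.24 with the 3 odd arrays turned (right), and CXCL8 crosses the line between the panels.

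By label group, CD163L1 was highest in the shared cow (0.98, n = 1), followed by the other high-DTH cows at 0.17 ± 0.12 (SD, n = 2), the other high-Ab cows at 0.06 ± 0.57 (n = 2), the low-DTH cows at −0.01 ± 0.64 (n = 3) and the low-Ab cows at −0.39 ± 0.34 (n = 3). The gaps between neighbours in this order after the first were 0.11, 0.07 and 0.38, each smaller than the larger SD of the pair. The first gap was 0.81 and has no spread on the side of the single shared cow. After turning, the low-DTH mean was 0.09 ± 0.81 and passed that of the high-Ab cows.

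CD163L1 was higher on average in high-Ab than in low-Ab cows, and the groups overlapped. The high-Ab cows, the shared cow included, averaged 0.37 ± 0.67 and the low-Ab cows −0.39 ± 0.34 (SD, n = 3 each). The overlap came from high-Ab cow 3 at −0.34, which lay below low-Ab cow 1 at −0.04. The difference was 0.76 ± 0.35 (SE; 95% interval −0.08 to 1.61), rank 3 in size of 141 genes, and did not pass limma's test (adjusted p = 0.858 over 562 features).

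A two-sided exact permutation test of the CD163L1 cow values gave p = 0.2 (adjusted p = 0.4 over the 4 such tests here), where 0.1 is the smallest p that 3 against 3 cows allow. In this comparison limma called 0% of 562 features after adjustment (0 features) and 6.58% at an unadjusted p under 0.05 (37 features), CD163L1 not among them, and 10.6% of genes did not overlap between the groups. Without the shared cow the difference was 0.46 ± 0.30, and with the odd arrays turned it was 0.77.

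High-DTH cows also had a higher mean CD163L1 than low-DTH cows, by an amount within the spread of the cows. The means were 0.44 ± 0.47 and −0.01 ± 0.64 (SD, n = 3 each), with low-DTH cow 3 at 0.71 above both further high-DTH cows. The difference was 0.45 ± 0.37 (SE; 95% interval −0.45 to 1.36), with a limma adjusted p of 0.769 over 565 features and an exact permutation p of 0.4 (two-sided; adjusted p = 0.5). Of the features limma called 0% after adjustment (0 features) and 9.73% at an unadjusted p under 0.05 (55 features), CD163L1 not among them, and 15.6% of genes did not overlap.

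This CD163L1 difference moved with single cows and with the odd array of low-DTH cow 3. It was 0.18 without the shared cow, 0.22 without low-DTH cow 1 and 0.81 without low-DTH cow 3. It was 0.24 over arrays with the cow in Alexa647 and 0.67 in Alexa555, and 0.44 over arrays 1 and 2 and 0.78 over arrays 3 to 5, but low-DTH cow 3 enters arrays 3 to 5 through its odd array alone, and that array is 1 of its 2 in Alexa555. Turned, the difference was 0.35 over all arrays, 0.46 in Alexa555 and 0.37 over arrays 3 to 5. In the Ab comparison the split by dye gave 0.70 and 0.82 (0.74 and 0.81 turned), and the split by array set 0.74 and 0.79 (0.76 and 0.79 turned). Both comparisons contain the shared cow, so they are not independent of each other.

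Whether CD163L1 differed more by antibody than by cell-mediated class was tested in 1 fit of all 11 cows, in which the shared cow cancels out of the contrast. The Ab effect exceeded the DTH effect by 0.31 ± 0.43 (SE; 95% interval −0.68 to 1.30), with a limma adjusted p of 0.882, and by 0.42 with the odd arrays turned. In that fit limma called 1.25% of 561 features after adjustment and 10.2% before it, and CD163L1 was in neither set. The 7 features called after adjustment became 0 with the odd arrays turned. Without low-DTH cow 3 the value was −0.05, and over arrays 3 to 5 alone, where low-DTH cow 3 has only its odd array, it was 0.00, or 0.41 with that array turned. The value lay between 0.13 and 0.66 when any other cow was left out. Both ends come from leaving out a further high-Ab or high-DTH cow, and the shared cow does not cancel out of those contrasts.

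With each cow used once, the 5 high cows had a mean CD163L1 of 0.29 ± 0.49 and the 6 low cows of −0.20 ± 0.50 (SD). The difference was 0.49 ± 0.27 (SE; 95% interval −0.10 to 1.08), rank 4 in size of 141 genes, with a limma adjusted p of 0.996 over 561 features. The two-sided exact permutation test over the 462 splits of 5 against 6 cows gave p = 0.139 (adjusted p = 0.4), where the smallest possible is 0.00216. Limma called 0% of features after adjustment (0 features) and 3.57% before it (20 features), CD163L1 in neither, and 1.42% of genes did not overlap. Without the shared cow the difference was 0.32, and with the odd arrays turned 0.45.

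The low groups share no cow, and CD163L1 was lower on average in low-Ab than in low-DTH cows by −0.38 ± 0.34 (SE; 95% interval −1.19 to 0.43). The limma adjusted p was 0.878 over 564 features and the two-sided exact permutation p was 0.5 (adjusted p = 0.5). Both groups hold odd arrays, and with these turned the difference was −0.50. Over arrays 3 to 5 it was −0.015 as deposited and −0.43 turned. Without low-DTH cow 3 the difference was −0.02, without low-Ab cow 3 it was −0.22 and without low-DTH cow 1 it was −0.61. Limma called 0% of features after adjustment (0 features) and 7.98% before it (45 features), CD163L1 in neither, and 13.5% of genes did not overlap.

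**Figure D3:**
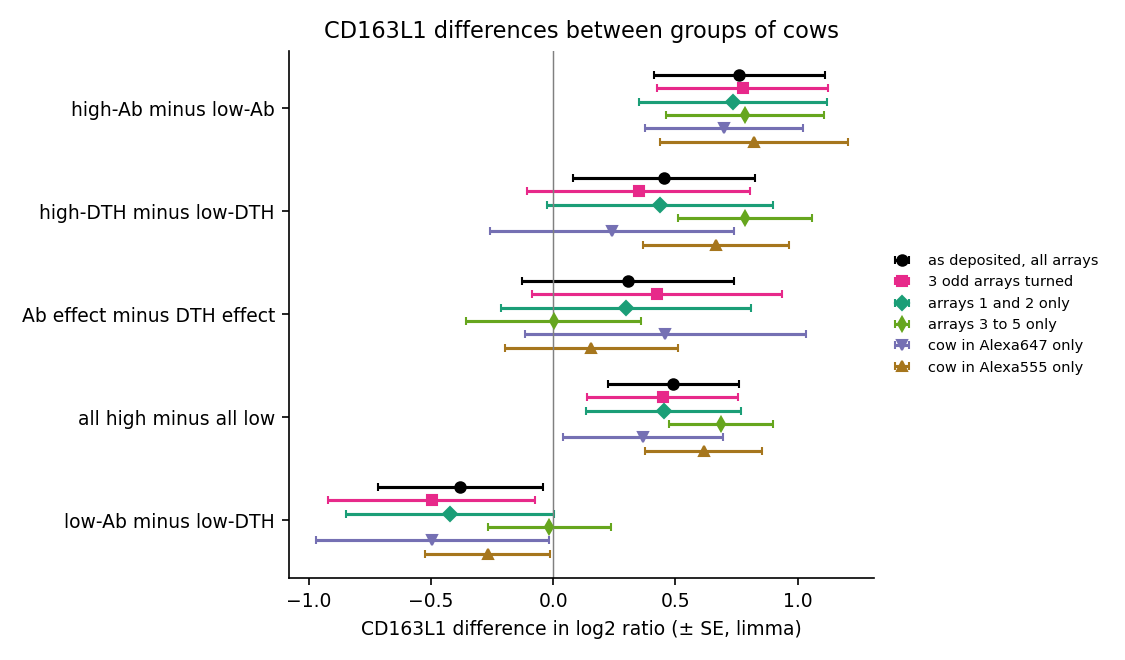
CD163L1 difference in log2 ratio (horizontal axis; points, with bars for the SE from limma) for 5 comparisons (vertical axis) under 6 sets of arrays. As deposited the high-Ab minus low-Ab difference is 0.76 and spans 0.70 to 0.82 over the sets drawn, whereas the high-DTH minus low-DTH difference of 0.45 spans 0.24 to 0.78, the highest over arrays 3 to 5 with low-DTH cow 3 at its odd array alone (0.37 with it turned).

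CD163L1 was next set against the other 140 named genes over the 11 cows. By Pearson's r, 65 genes were above 0 and the median was −0.04. After adjustment over 140 genes, the permutation test called 0% of them (0 genes, smallest adjusted p = 0.309), and by Spearman's rho also 0 (smallest adjusted p = 0.452). Unadjusted, 11.4% had a permutation p under 0.05 (16 genes by r, 7 of them above 0, and 12 genes by rho). The cows are few and the genes share arrays, dyes and standard, so the order of genes below is a description.

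The gene most like CD163L1 was CD247, the zeta chain through which the T cell receptor complex signals. CD247 was at 0.73 in the shared cow, 0.75 and 0.47 in high-Ab cows 2 and 3, 0.45 and 0.19 in high-DTH cows 2 and 3, −0.03, 0.16 and 0.05 in the low-Ab cows and −0.11, −0.39 and 0.87 in the low-DTH cows. The shared cow, high-Ab cow 2 and low-DTH cow 3 had the 3 highest values of both genes. The r was 0.76 (rho = 0.72; permutation p = 0.00716, adjusted p = 0.309 over 11 cows), 0.59 without the 2 farthest cows and 0.79 with the odd arrays turned.

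The likeness of CD247 and CD163L1 was seen in each dye orientation (r = 0.81 in Alexa647 and 0.70 in Alexa555) and was weaker over arrays 3 to 5 (0.43) than over arrays 1 and 2 (0.77), a difference that was not tested. On turning the odd arrays, these 4 values were 0.83, 0.71, 0.35 and 0.95. Over arrays 1 and 2 turning changes only low-Ab cow 1, whose arrays 1 and 2 are both odd. In the table of values the rows of CD247 and CD3E stand directly before those of CD163L1 in each of the 4 blocks of rows that hold it, and the part of this position was not tested.

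The next genes above 0 were IL2RG, the common gamma chain of the receptors for interleukins 2, 7 and 15 (r = 0.70, rho = 0.69), the cytokine gene IL18 (0.69, 0.63), DAXX, a nuclear protein linked to cell death signalling (0.66, 0.65), and CCR3, the eotaxin receptor (0.64, 0.62). Their permutation p was 0.016, 0.0189, 0.0265 and 0.0295, and the adjusted p was 0.309 for the first 3 and 0.318 for CCR3. Without the 2 farthest cows r was 0.72, 0.53, 0.45 and 0.44. Turning the odd arrays left IL2RG at 0.70, and put DAXX at 0.62, CCR3 at 0.58 and IL18 at 0.36.

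At the other end stood IGF1R, the receptor of insulin-like growth factor 1 (r = −0.81, rho = −0.74), SERPINA6, the corticosteroid-binding globulin (−0.73, −0.70), BOLA-DQA2, an MHC class II alpha chain (−0.73, −0.71), IL1RN, the interleukin 1 receptor antagonist (−0.72, −0.57), and LTBP2, which encodes a matrix protein of the latent TGF beta binding family (−0.67, −0.67). Their permutation p was 0.00265, 0.0114, 0.0104, 0.0143 and 0.0224, each with an adjusted p of 0.309. Without the 2 farthest cows r was −0.56, −0.64, −0.68, −0.48 and −0.69. When the odd arrays were turned, IGF1R went to −0.21, SERPINA6 to −0.50, BOLA-DQA2 to −0.57 and LTBP2 to −0.46, and IL1RN was at −0.79.

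The correlates differed in how far they themselves varied. Over the cows IL2RG spanned only −0.10 to 0.13, IGF1R −0.20 to 0.10, SERPINA6 −0.15 to 0.07 and LTBP2 −0.08 to 0.19, each a narrower span than the −0.13 to 0.20 of the vapA control spots. CD247 (−0.39 to 0.87), BOLA-DQA2 (−0.73 to 0.71) and IL1RN (−0.85 to 0.10) spanned more. The ratio of the SD between cows to that between arrays of a cow had a median of 0.64 over genes. It was 0.37 for IL2RG, 0.53 for IGF1R, 0.40 for SERPINA6 and 0.51 for LTBP2. For CD247, BOLA-DQA2 and IL1RN it was 1.11, 1.14 and 1.19. IL1RN kept an r of −0.81 to −0.49 with CD163L1 over the settings tried other than leaving out a cow, and in BOLA-DQA2 it lay between −0.88 and −0.18. For IGF1R it lay between −0.85 and 0.58, so its sign was not kept.

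**Figure D4:**
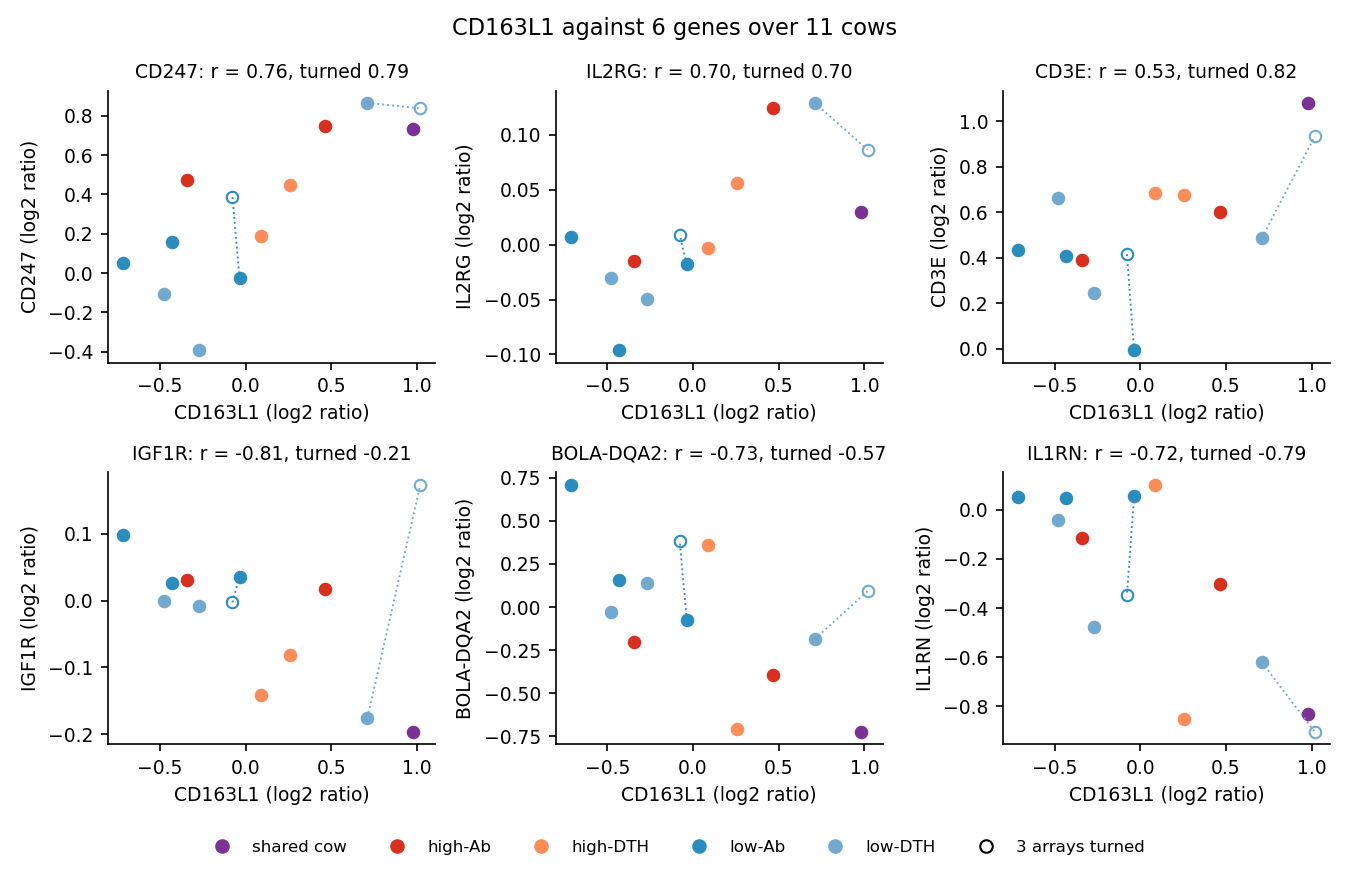
Cow values of 6 genes (vertical axes, log2 ratio) against CD163L1 (horizontal axes, log2 ratio) for 11 cows coloured by group, with open circles joined by dotted lines for the cows that move when the 3 odd arrays are turned. CD247 and IL2RG keep their r (0.76 and 0.79, 0.70 and 0.70), CD3E goes from 0.53 to 0.82, and IGF1R from −0.81 to −0.21 as low-DTH cow 3 moves.

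The CD3 chains, which carry the signal of both alpha beta and gamma delta receptors, all correlated with CD163L1 above 0. CD3G was at r = 0.63 (rho = 0.61), CD3E at 0.53 (0.46) and CD3D at 0.53 (0.56), with adjusted permutation p of 0.366, 0.549 and 0.557 over 11 cows. With CD247 the list thus had 4 of 4 genes above 0 and a median r of 0.58, against 65 of 140 genes and −0.04 over all other genes. Turned, the median was 0.78, and CD3E (0.82), CD247 (0.79), CD3D (0.77) and CD3G (0.76) became the 4 genes of highest r, each with an adjusted permutation p of 0.188.

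Within groups, the r of the CD3 chains with CD163L1 rested on the sign of the odd arrays. When each cow was expressed as its deviation from the mean of its label group (10 cows, without the shared cow), r as deposited was 0.76 for CD247, 0.79 for IL2RG, 0.15 for CD3G, −0.16 for CD3E and −0.51 for CD3D. After turning the odd arrays, the same values were 0.91, 0.77, 0.67, 0.69 and 0.81, and 0 of 140 genes passed adjustment either way (smallest adjusted permutation p of 0.084 and 0.0518). Deviations sum to 0 within a group, so the 10 values are not independent of each other. The permutations treated them as if they were, so these p-values are likely too small. CD3D moved from −0.078 to 0.35 in low-Ab cow 1 and from 0.30 to 0.77 in low-DTH cow 3. Within cows, over repeat arrays, the deviations of CD3G, CD3D, CD3E and CD247 followed those of CD163L1 with r = 0.66, 0.52, 0.46 and 0.38, as deposited, and with r = 0.41, 0.34, 0.02 and 0.30 with the odd arrays turned. Such arrays share 1 cow.

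In the comparisons of high with low cows the CD3 list had differences of the same sign as CD163L1. All 4 genes had differences above 0 in the Ab (median 0.56), DTH (median 0.45) and all-cow comparisons (median 0.46), where the medians of the other 140 genes were −0.01, −0.03 and −0.01. Limma called 0 of the 4 after adjustment in each, as it called 0% of all 562, 565 and 561 features. Turned, all 4 differences stayed above 0 in each, with medians of 0.44, 0.41 and 0.38. For the Ab minus DTH effect, where CD163L1 was at 0.31, only 2 of the 4 were above 0 (turned, also 2). In low-Ab minus low-DTH, where CD163L1 was at −0.38, 0 of the 4 were above 0 (turned, 1). The mean of the 4 chains was 1.00 in the shared cow, 0.46 to 0.60 in the other high-Ab cows, 0.59 to 0.73 in the other high-DTH cows, −0.05 to 0.26 in the low-Ab cows and 0.06 to 0.51 in the low-DTH cows. On the turned values it was 0.25 to 0.34 in the low-Ab cows and 0.06 to 0.79 in the low-DTH cows, so that low-DTH cow 3 then stood above both further high-DTH cows. The part of the overall T cell content in the CD163L1 differences was not tested.

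CD5, the other measured gene of the scavenger receptor cysteine-rich family and a surface molecule of T cells, had r = 0.58 with CD163L1 (rho = 0.42, adjusted permutation p = 0.447), which was 0.18 without the 2 farthest cows and 0.45 with the odd arrays turned. It ran from −0.15 to 0.50 over cows, with the shared cow highest. CD4, the coreceptor of helper alpha beta T cells, had r = 0.44, 0.10 without the 2 farthest cows and 0.31 with the odd arrays turned. The 8 measured genes of T cell identity and costimulation as a list had 5 above 0 and a median r of 0.03 (0.06 turned), close to that of all genes.

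Genes known as products of gamma delta T cells did not share 1 sign of r with CD163L1. Of 9 measured cytokine and chemokine genes, IFNG, IL17A, IL10, TGFB1, CSF2, IL2, CCL3, CCL5 and XCL1, 3 had r above 0, with a median of −0.08 and a range of −0.42 to 0.39. Turned, 3 were above 0 again, with a median of −0.26 and a range of −0.56 to 0.33. In the Ab and DTH comparisons 3 of the 9 had differences above 0 in each, with medians of −0.01 and −0.05 (turned, 4 in each). Limma called 0 of the 9 there after adjustment, and 0% of all features. In low-Ab minus low-DTH, where CD163L1 was at −0.38, 9 of the 9 were above 0 (turned, also 9). Their median was 0.05 (0.10 turned), and of all other genes 75 of 140 were above 0 (80 turned). Of 6 receptor genes for homing and growth, CCR7, CXCR4, IL2RA, IL2RG, IL12RB1 and IL12RB2, 3 had r above 0 (−0.27 to 0.70; turned, 4, from −0.17 to 0.70). Limma called 0 of the 6 in the Ab and DTH comparisons, where it called 0% of all features.

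Markers of other blood cells had mostly negative r with CD163L1. The monocyte list had 0 of 5 genes above 0 (median −0.32, from −0.55 to −0.07), with CD14, a lipopolysaccharide coreceptor, at −0.36. Turned, it again had 0 of 5 (median −0.41, from −0.61 to −0.09), and CD14 was at −0.41. Averaged over the 5 monocyte genes, the level was −0.22 in the shared cow, −0.23 to −0.16 in the other high-Ab cows, −0.14 to −0.05 in the other high-DTH cows, −0.21 to −0.03 in the low-Ab cows and −0.31 to −0.08 in the low-DTH cows (turned, −0.21 to −0.06 and −0.34 to −0.08 in the low groups). For CD14 r was −0.68 over arrays 1 and 2 and 0.24 over arrays 3 to 5, and −0.73 and 0.24 turned.

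For B cells 1 of 4 genes was above 0 with a median of −0.30, and 2 with a median of −0.04 when the odd arrays were turned. The immunoglobulin heavy chain IGHM was at −0.17, or 0.06 turned. The 4-gene mean ran from −0.44 in the shared cow to 0.53 in a low-DTH cow. FCGR3A and XCL1, taken as natural killer cell markers, had r of −0.50 and −0.23 (−0.49 and −0.27 turned), and their mean ran from −0.25 in the shared cow to 0.72 in a low-Ab cow. LTF, the neutrophil granule protein lactoferrin, was at −0.32 (−0.34 turned), and at −0.80 without the 2 farthest cows. The mean of LTF and CXCR2 ran from −0.83 in a high-Ab cow to 0.67 in a low-Ab cow. No platelet or red cell gene of the list was measured, and the housekeeping genes ACTB, GAPDH and HPRT1 had a median r of 0.08 (−0.31 to 0.18; turned, −0.04 to 0.40). These are ratios to a standard that holds the same cell types, so none gives a share of cells, and the part of other cell types in the CD163L1 values was not tested.

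**Figure D5:**
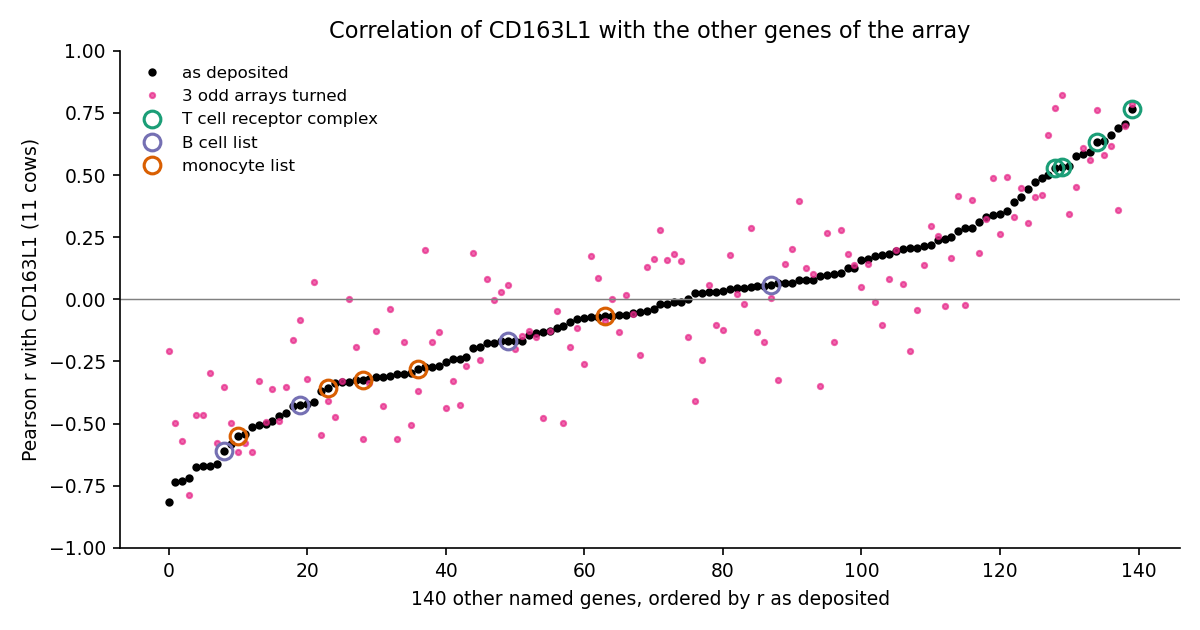
Pearson r with CD163L1 over 11 cows (vertical axis) of the 140 other named genes in order of r (horizontal axis), as deposited (black) and with the 3 odd arrays turned (pink), with rings on the CD3 and CD247 chains, the B cell list and the monocyte list. The 4 receptor chains lie between 0.53 and 0.76 and the 5 monocyte genes between −0.55 and −0.07, and 106 of 140 genes keep the sign of r when the arrays are turned.

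The order of correlates as a whole depended on which arrays were used. Of the 140 genes, 106 kept the sign of r with the odd arrays turned, 106 over arrays with the cow in Alexa647 and 106 in Alexa555. Over arrays 1 and 2 it was 106 of 139, and over arrays 3 to 5 it was 83 of 139. After adjustment 0 genes passed in each of these settings, the splits being as deposited, and with each of the 11 cows left out in turn a gene passed once: without high-Ab cow 2, IGF1R had r = −0.91 with CD163L1 (adjusted permutation p = 0.028). In the same splits with the odd arrays turned, CD247 (r = 0.95, adjusted permutation p = 0.00139, the smallest possible here) and BCL2L1, an inhibitor of cell death (r = 0.86, adjusted p = 0.0292), passed over arrays 1 and 2, and CD3E (r = 0.88, adjusted p = 0.049) with the cow in Alexa555. By rho, CD247 (0.96, adjusted p = 0.00278) and CD3G (0.90, adjusted p = 0.0215) passed over arrays 1 and 2. Over arrays 1 and 2 turning changes only low-Ab cow 1, whose arrays 1 and 2 are both odd. The calls in that set thus rest on the sign given to a single cow, although the r of BCL2L1 there was already 0.85 as deposited. Neither Alexa647 nor arrays 3 to 5 gave a gene, and over arrays 3 to 5 the r of CD247 was 0.35 and that of BCL2L1 was −0.20.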

How the data were processed

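Blood mononuclear cell RNA of 11 cows was measured on 44 two-colour arrays against a common RNA standard. Per the labels' protocols, RNA was amplified in 1 round before labelling with Alexa647 and Alexa555. The authors deposited a log ratio for each spot, read as log2. For its base, direction, scanner, background correction and normalization the sources used here give nothing. Medians of arrays ran from −0.08 to 0.07. Signal over background is unknown, and precision is limited by how many arrays and cows there were. Of 1680 spots, 1224 had 1 symbol, 16 had several and 440 had none; 137 of 141 genes matched a RefSeq gene by Entrez identifier with the same symbol.

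Spots of a gene were averaged, then arrays of a cow by dye orientation, then both orientations. Cows are the replicates. With R 4.3.3, limma 3.58.1 (lmFit, then eBayes) was fitted on all features, with p-values adjusted by Benjamini and Hochberg and called under 0.05, beside two-sided exact permutation tests over cows. Correlations used 100000 permutations (Python 3.11.15, numpy 2.4.6), adjusted over 140 genes. Scripts were tested on simulated data. Named genes were CD163L1, the 5 of highest and 5 of lowest r with it, the measured CD3 chains and scavenger receptor family genes, 1 marker per other cell type (IGHM, CD14, FCGR3A, LTF, CD4; CD8A was not among the named genes), the member of a list furthest from 0 and vapA; genes named for their spread, XCL1, CXCR2 and the housekeeping genes were chosen after their values were seen. The gene and the lists were chosen with earlier results of these data known. Alternatives were the sign or omission of the 3 odd arrays, the averaging, dye, array set, normalization, centring, features fitted, each cow left out, arrays as samples and the cow number as a block; relations between arrays without 2 cows, and dye, array set and within-group values with the odd arrays turned, were added after seeing the data. Same-numbered cows of compared groups deviated with r of −0.51 to −0.13, so numbers were not taken as pairs.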

Additional observations from a re-analysis of the deposited data

Results flagged for a closer look

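In groups of 4 to 10 cows, a value whose gap to its neighbour was large for the range of the group (Dixon's ratio at the 95% level) was picked out for CD163L1 and the genes named beside it. Of 50 groups tested 3 had such a value, about as many as the 1 in 20 that chance gives, and CD163L1 had none. LTBP2, among the genes of lowest r with CD163L1, was at 0.18 in high-Ab cow 3, apart from the other 4 high cows at −0.08 to −0.02. CD3D was at −0.078 in low-Ab cow 1, apart from the other 5 low cows at 0.29 to 0.44; that cow holds 2 of the odd arrays, and CD3D was at 0.35 there with them turned. LTF was at 1.30 in low-Ab cow 3, the cow of lowest CD163L1, apart from the other 5 low cows at −0.29 to 0.18. The SD of LTF between arrays of a cow was 1.26, the largest of the 141 genes. Its ratio of the SD between cows to that SD was 0.54, below the 0.64 of the median gene.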

How the results depend on the processing

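CD163L1 kept its direction under each alternative run in the Ab (0.70 to 0.82), DTH (0.24 to 0.78), all-cow (0.37 to 0.69) and low-group (−0.53 to −0.015) comparisons, and no alternative brought it past adjustment; the smallest adjusted p was 0.0577, with arrays as samples and the cow as a random block in the Ab comparison. Leaving out 1 cow gave 0.46 to 1.12, 0.18 to 0.81, 0.32 to 0.67 and −0.61 to −0.02. The Ab minus DTH effect lay between 0.00 and 0.50 over settings and between −0.054 and 0.66 with 1 cow left out, below 0 without low-DTH cow 3; the cause was not tested. With the cow number as a replicate block the difference was 0.76 ± 0.17 for Ab (adjusted p = 0.399) and 0.45 ± 0.44 for DTH (adjusted p = 0.926), which changed no call. The fit with arrays as samples gave all features 1 within-cow correlation, 0.21 in the Ab comparison. CD163L1 itself varied more between cows (SD 0.54) than between arrays of a cow (SD 0.34). Its SE of 0.22 in that fit, against 0.35 as first fitted, is therefore likely too small.

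Counts of features called were 0 as first fitted except 7 for the Ab minus DTH effect. The fit with arrays as samples used 1 within-cow correlation for all features. It called 16 for Ab, 2 for DTH, 9 for all cows and 2 for the Ab minus DTH effect. That effect had 0 calls with the odd arrays turned or left out, in either dye or array set alone (odd arrays turned or not) or after quantile normalization, 4 with a plain mean over arrays, 2 with named genes only, and 0 to 7 with 1 cow left out. For the low groups 1 was called with a plain mean, 1 with array medians set to 0 and 2 with named genes only, and, with the odd arrays turned, 1 in Alexa555 alone and 5 over arrays 3 to 5. Turned likewise, 1 gene passed with CD163L1 in Alexa555 and 2 over arrays 1 and 2 (CD247 at 0.95), IGF1R was at 0.089 over arrays 3 to 5 and 0.58 within groups, and IL18 at −0.029 within groups. These alternatives with turned arrays in part of the data were chosen after seeing the data. With 1 cow left out, Ab had 0 to 1 calls (1 without the shared cow) and the correlations with CD163L1 0 to 1. The number of cows, 3 per class, limits the precision, and signal over background is unknown.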

Other observations

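With each cow taken as its deviation from the mean of its label group (10 cows), the genes at the ends of the order around CD163L1 as deposited were others than across groups: ADAM17, a protease that sheds cell surface proteins, had the highest r at 0.88 and IGCGAMMA, an immunoglobulin heavy chain constant region, the lowest at −0.81, with a smallest adjusted permutation p of 0.084 over 140 genes. Turned, these were at 0.49 and −0.56, and CD247 (0.91) and the chemokine gene CCL3 (−0.80) stood at the ends. Over arrays with the cow in Alexa555 the leading genes were CD5 (0.86, turned 0.62) and BOLA-DQA2 (−0.88, turned −0.64), and over arrays 1 and 2 BCL2L1 (0.85, turned 0.86) and SIRPA, a receptor of myeloid cells (−0.70, turned −0.69). These genes, other than CD5 and BOLA-DQA2, were chosen after their values were seen. The 10 deviations from group means are not independent of each other, so the adjusted permutation p of 0.084 is likely too small.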
